A study of Mus musculus with 24 samples.

Results

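Left ventricular (LV) gene expression was compared between ovariectomized and intact female mice that had both received angiotensin II (AngII), the vasoconstrictor peptide of the renin-angiotensin system. The comparison took every library of the 2 groups, 4 of ovariectomized mice with AngII (Ovx + AngII, libraries 46, 47, 48 and 54) and 4 of intact mice with AngII (Ctrl + AngII, libraries 40, 41, 42 and 52), which are 8 of the 24 libraries measured. Genes were kept when their mean over these 8 libraries was at least 10 after all libraries had been put on a common scale. This left 13780 genes of 24958 with a name. The question was whether losing the ovaries changes the ventricle that is under AngII.

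All mice of both groups were C57BL6/J females aged 24 months, and those of the Ovx + AngII group had been ovariectomized at 12 months. AngII was infused by a minipump at 1.5 mg/kg/day for 28 days. The other 16 libraries were untreated intact females (Ctrl), untreated ovariectomized females (Ovx), control males and gonadectomized males, 4 each and of the same age, and only the untreated females enter below. Each library was made from free-wall RNA of 2 mice combined, so n counts pools. 1 mouse of this age on AngII was sacrificed early, its group was not given, and the pool it would have entered is not settled. Per the study's account, sham surgery was done but did not include a pump filled with vehicle. Mice were killed over a stretch of the light phase and not at one time, and the hour of each animal was not given, so a different hour and a different state of the clock at one hour cannot be told apart.

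The circadian clock of the heart is a feedback loop. CLOCK or NPAS2 pairs with BMAL1, the product of Arntl, and the pair binds E-box motifs and drives the Per and Cry genes, whose products then block the pair. The same pair drives the REV-ERB genes Nr1d1 and Nr1d2, which hold Arntl down, and the output factors Dbp, Tef and Hlf, which bind D-box motifs in genes of metabolism and ion transport. Ovarian oestrogen acts on heart and vessel cells through its nuclear receptors, and AngII loads the ventricle by raising blood pressure and acts on its cells directly.

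Libraries of both AngII groups were alike in size after scaling. Between 15231 and 16192 genes were above 0, and depth relative to the median library was 0.452 to 1.23 in Ctrl + AngII (library 40 was the shallowest) and 1.09 to 1.18 in Ovx + AngII. Pairs of libraries within a group differed by a median of 0.128 to 0.194 on the log2 scale, and pairs across the groups by 0.140 to 0.207. Myh6 and Actc1, the cardiomyocyte myosin and actin genes, were high in all 8, the atrial myosin light chain gene Myl7 was at 7.21 or less, and Nppa was at 12279 or more against 4896 or less in the untreated libraries. Y-linked genes were listed at 0 in the 8 AngII libraries and in the untreated Ovx libraries, but above 0 in the untreated Ctrl libraries 37 and 51 (Ddx3y up to 31.6), so counts and gene values of the comparison without AngII and of the difference between the comparisons are also given without these 2. Both libraries enter the shared estimate of spread under AngII as well, so the counts of that comparison are also given without them. Levels below are rescaled normalized values, differences are log2 fold changes of Ovx + AngII against Ctrl + AngII on the log2(value + 1) scale, and adjusted p-values are from limma over all genes tested.

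Ovariectomy under AngII went with a small set of changed genes. At an adjusted p of 0.05 alone, 3 of 6, 9 of 13 and 1 of 10 genes in the circadian clock lists passed. Of all genes tested, 1.01% did. These lists were chosen with earlier results of these data known. With thresholds of 0.05 on the adjusted p and 1 on the size of the difference, 13 genes (0.0943% of those tested) were called. Of these 7 were higher (0.0508%): Spon2, Arntl, Npas2, Prnd, Prdm1, Rcan1 and Adam19. Another 6 were lower (0.0435%): Mthfd1l, Per2, Cys1, Aox3, Spock2 and Gm12295. At the adjusted p alone 139 genes differed (1.01%), 56 higher (0.406%) and 83 lower (0.602%), with a median size of 0.53 among them and 59 of them under 0.5. In 134 of these the 4 Ovx + AngII libraries did not overlap the 4 Ctrl + AngII libraries. Over all genes tested this held for 6.84%, and since the 139 were chosen by the same 8 libraries their share is no further evidence. The median difference of all genes was 0.106 in the values as deposited and −0.0017 after scaling. Without the scaling 623 genes passed the adjusted p, 556 higher and 67 lower. Leaving out library 42, 47 or 54 left 76, 79 and 82 genes past the adjusted p. Without Ctrl libraries 37 and 51 there were 170, 73 higher and 97 lower, and 15 were called.

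**Figure D1:**
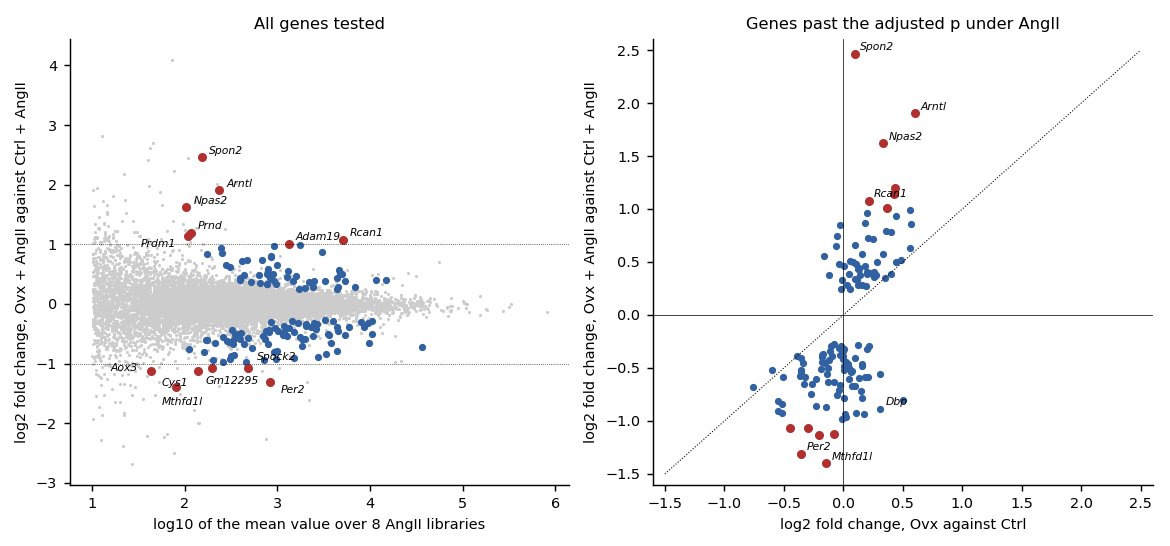
Left, the log2 fold change of each of the 13780 genes tested against the log10 of its mean value over the 8 AngII libraries, with the 139 genes past the adjusted p in blue and the 13 that also reach a size of 1 in red and named (dotted lines at −1 and 1). Right, for the 139 genes, the log2 fold change of ovariectomy with AngII (vertical) against that without AngII (horizontal). All 13 red points have the same sign in both comparisons (dotted line, equal effects).

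The clock activators rose. Arntl (chr7:113207465-113314126 in mm10) stood at 149, 80.3, 81.3 and 90.6 in Ctrl + AngII libraries 40, 41, 42 and 52 and at 294, 366, 457 and 361 in Ovx + AngII libraries 46, 47, 48 and 54, an order of libraries kept in all lists of values below. The AngII groups did not overlap, and library 40 was the highest of its group. The log2 fold change was 1.90 (SE 0.32, limma adjusted p = 0.00393), a 3.74-fold higher value on that scale.

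Npas2 (chr1:39193731-39363236), the partner of BMAL1 that can replace CLOCK, was at 39.2, 44.0, 58.3 and 58.1 in Ctrl + AngII and at 126, 139, 204 and 154 in Ovx + AngII. Every Ovx + AngII library lay above 2 times the highest Ctrl + AngII library. Its log2 fold change was 1.62 (SE 0.23, limma adjusted p = 0.00178). Clock itself rose less, from 1165, 1035, 1037 and 945 to 1550, 1484, 1572 and 1525, with a log2 fold change of 0.55 (limma adjusted p = 0.0277). The 4 Ovx + AngII libraries of Clock lay close together and all above Ctrl + AngII. But the adjusted p of Clock rose above 0.05 without library 41, 42, 46, 47, 48, 52 or 54 (up to 0.0878). Of the 6 clock genes highest near lights-on, a list chosen with earlier results of these data known, these 3 rose and none fell. Of all genes 0.406% rose. Cry1, a repressor that peaks late, and Nfil3, which opposes DBP at D-boxes, had log2 fold changes of −0.27 and 0.05 and did not pass the test.

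The period genes, whose products block the activators, fell. Per2 (chr1:91415982-91459324) was at 1016, 1069, 1444 and 1157 in Ctrl + AngII and at 561, 449, 412 and 457 in Ovx + AngII. The highest Ovx + AngII library was thus well below the lowest Ctrl + AngII library. The log2 fold change was −1.31 (SE 0.16, limma adjusted p = 0.000503), a 2.48-fold lower value. Per1, which is also induced by glucocorticoids, fell from 2194, 2535, 2284 and 2024 to 1526, 1495, 1189 and 1324, with a log2 fold change of −0.71 (limma adjusted p = 0.00393). Per3 fell from 1070, 1486, 1252 and 1164 to 945, 719, 535 and 719, with a log2 fold change of −0.79 (limma adjusted p = 0.00393). Neither gene overlapped between the groups, and Per3 had the narrower gap, between libraries 40 and 46. Cry2, a further repressor that passed, had a log2 fold change of −0.52 (limma adjusted p = 0.00961). It was at 1241 to 1512 in Ctrl + AngII and at 831 to 1063 in Ovx + AngII.

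The output factors of the PAR-bZIP family, Tef, Dbp and Hlf, all fell. Tef was at 4919, 5973, 5686 and 5463 in Ctrl + AngII and at 3712, 3118, 2833 and 3179 in Ovx + AngII, with a log2 fold change of −0.78 (SE 0.09, limma adjusted p = 0.00045). Dbp was at 3317, 4417, 3089 and 3539 and then at 2506, 1875, 1460 and 1996, with a log2 fold change of −0.89 (limma adjusted p = 0.0023). Hlf was at 896, 1154, 805 and 888 and then at 599, 547, 338 and 495, with a log2 fold change of −0.94 (limma adjusted p = 0.00345). In all 3 genes the groups were apart, library 46 was the highest and library 48 the lowest of Ovx + AngII. Ciart, a repressor of the BMAL1 pair, was at 233, 610, 389 and 393 in Ctrl + AngII against 223, 190, 177 and 221. Its groups nearly touched at library 40, and its log2 fold change of −0.92 (limma adjusted p = 0.0396) no longer passed without library 38, 41, 42, 44, 46, 47, 48, 51, 52 or 54. Usp2, a rhythmic deubiquitinase, fell by 0.51 on the log2 scale. Wee1, the cell cycle kinase driven by the same E-boxes, was at 426 to 463 in Ctrl + AngII and at 195 to 273 in Ovx + AngII, a log2 fold change of −0.86 (limma adjusted p = 0.00345).

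Of the 13 clock genes highest later in the day, 9 fell and none rose, against 0.602% of all genes that fell, and the median over the 13 was −0.71. Both clock lists were chosen with earlier results of these data known, so their shares are a description and no further evidence. The 4 that did not pass were Nr1d1 (0.37, limma adjusted p = 0.325), Nr1d2 (−0.33), Bhlhe41 (−0.24) and Bhlhe40 (−0.10). Nr1d1, the repressor of Arntl, was at 4152, 4581, 2870 and 3452 in Ctrl + AngII and at 5915, 4989, 3680 and 4829 in Ovx + AngII, so that the groups overlapped and the direction of the means was opposite to that of the other output genes. Among 10 further clock and kinase genes, Wee1 fell and 9 did not pass, with a median of −0.02.

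In all 12 clock genes of both lists that passed, the 4 Ovx + AngII libraries lay outside the range of the other 12 female libraries, untreated ones included. Over all genes tested this held for 216 (1.57%), and among the genes that passed for 29 of the 56 higher and 46 of the 83 lower, which had been chosen by 8 of these 16 libraries. Within Ovx + AngII the order of libraries recurred from gene to gene: library 48 was the highest in 3 of 3 of the activators that rose and the lowest in 8 of the 10 genes that fell (Wee1 included), and library 46 was the highest in 8 of the 10. Within Ctrl + AngII library 41 was the highest in 9 of the 10 and library 40 the lowest in 6. The fit with the 8 male libraries added left the fold changes as they were, but Arntl, Per1, Per2, Per3, Dbp, Hlf, Usp2 and Ciart then missed the adjusted p (0.0641 to 0.415), while Npas2, Clock, Tef, Cry2 and Wee1 passed.

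**Figure D2:**
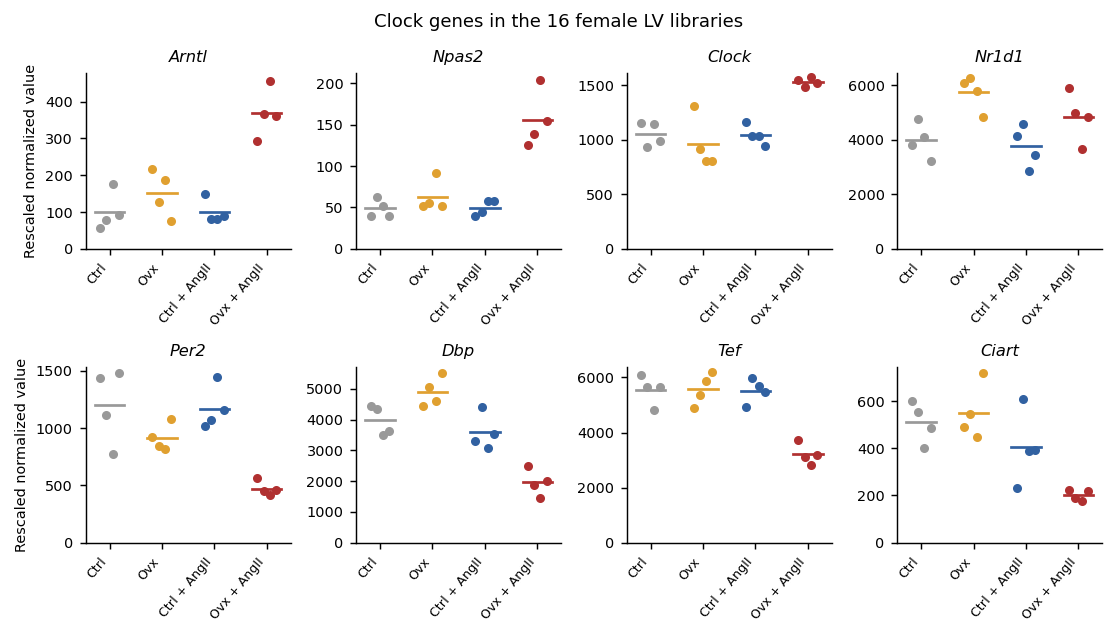
Rescaled normalized value (vertical, from 0) of 8 clock genes in each of the 16 female libraries, 4 per group, with the bar at the group mean. For Arntl, Npas2 and Clock all 4 Ovx + AngII points lie above the other 12, for Per2, Dbp, Tef and Ciart below them, and for Nr1d1 they lie among them.

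**Figure D3:**
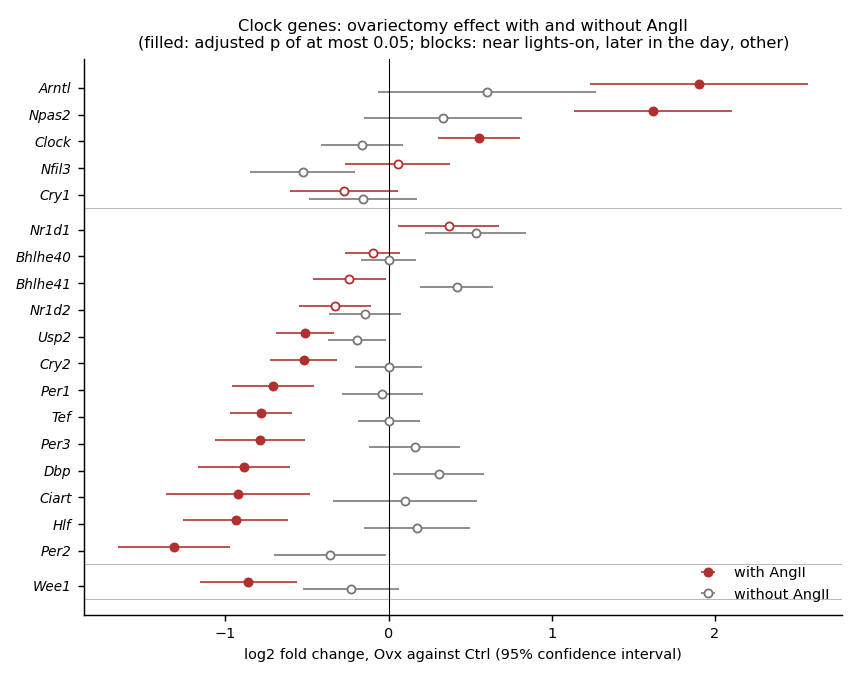
Log2 fold change of ovariectomy with its 95% confidence interval for 19 clock genes named in the text, with AngII in red and without AngII in grey, filled where the adjusted p is at most 0.05. The 13 filled points are all red: Arntl, Npas2 and Clock to the right of 0, and Wee1 with 9 of the 13 genes of the later list to the left.

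The promoter windows of the clock genes that passed are shown for the letters through which the loop is known to act. The RefSeq table (build GRCm38.p6, 250 bases before to 50 after each start) had a window for 11 of these 12 genes, and Per2 had no window. Exact matches were sought on both strands for the E-box CACGTG, the D-box TTATGTAA or TTACGTAA and the REV-ERB/ROR core TAGGTCA. Windows with a match are printed 5′ to 3′ with the match in capitals. Tef had an E-box in each of its 2 windows, 127 bases before the first start and 138 before the second.
Tef, chr15:81802423-81802722, plus strand: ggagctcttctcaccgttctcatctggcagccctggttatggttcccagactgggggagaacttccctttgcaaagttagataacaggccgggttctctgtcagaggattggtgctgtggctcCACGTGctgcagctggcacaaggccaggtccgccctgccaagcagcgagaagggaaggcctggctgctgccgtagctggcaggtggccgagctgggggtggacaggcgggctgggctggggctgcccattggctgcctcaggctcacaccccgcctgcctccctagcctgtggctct
Tef, chr15:81811164-81811463, plus strand: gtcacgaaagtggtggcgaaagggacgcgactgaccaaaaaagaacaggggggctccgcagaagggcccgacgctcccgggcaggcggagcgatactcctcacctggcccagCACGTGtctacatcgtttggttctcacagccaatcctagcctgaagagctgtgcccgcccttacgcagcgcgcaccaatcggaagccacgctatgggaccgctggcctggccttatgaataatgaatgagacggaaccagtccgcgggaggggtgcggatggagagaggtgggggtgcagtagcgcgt
Per1, chr11:69098699-69098998, plus strand: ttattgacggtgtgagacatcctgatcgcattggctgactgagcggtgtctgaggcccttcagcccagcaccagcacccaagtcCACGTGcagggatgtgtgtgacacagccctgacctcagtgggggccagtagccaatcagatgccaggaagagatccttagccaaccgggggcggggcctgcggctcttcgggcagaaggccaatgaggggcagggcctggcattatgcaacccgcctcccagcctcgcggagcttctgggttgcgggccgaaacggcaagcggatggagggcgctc
Ciart, chr3:95882179-95882478, minus strand: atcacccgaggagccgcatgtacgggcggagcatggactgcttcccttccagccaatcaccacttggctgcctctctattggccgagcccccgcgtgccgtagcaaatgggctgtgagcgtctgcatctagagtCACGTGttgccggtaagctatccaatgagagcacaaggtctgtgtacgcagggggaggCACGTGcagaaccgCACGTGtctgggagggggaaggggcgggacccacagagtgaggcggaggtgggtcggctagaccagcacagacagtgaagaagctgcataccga
Per3, chr4:151044616-151044915, minus strand: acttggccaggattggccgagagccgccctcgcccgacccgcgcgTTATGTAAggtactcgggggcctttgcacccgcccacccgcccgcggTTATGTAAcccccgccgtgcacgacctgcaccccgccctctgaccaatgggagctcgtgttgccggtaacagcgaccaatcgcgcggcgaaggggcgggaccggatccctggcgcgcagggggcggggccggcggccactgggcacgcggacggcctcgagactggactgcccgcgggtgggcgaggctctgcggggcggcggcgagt
Arntl, chr7:113207261-113207560, plus strand: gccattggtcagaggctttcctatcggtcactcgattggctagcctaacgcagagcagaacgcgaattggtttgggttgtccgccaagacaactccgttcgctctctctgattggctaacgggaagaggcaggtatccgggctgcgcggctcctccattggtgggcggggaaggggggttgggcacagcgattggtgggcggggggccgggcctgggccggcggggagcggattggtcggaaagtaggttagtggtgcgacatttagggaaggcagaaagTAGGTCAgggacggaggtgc
Per1 had 1 E-box and Ciart had 3 in the window shown. Per3 had 2 copies of the D-box, and Arntl had the REV-ERB/ROR core just after its start. No match was found in the windows of Npas2, Clock, Dbp, Hlf, Cry2 and Usp2. Over all 32851 windows of the table, 7.15% held the E-box, 1.06% the D-box and 2.61% the REV-ERB/ROR core. Of the genes tested that had a window, 11.6% held the E-box, 0.834% the D-box and 2.24% the REV-ERB/ROR core. Among genes that passed, E-boxes were in 8 of 68 lower genes with a window and in 7 of 44 higher ones, against 11.6% of the genes tested. The oestrogen response element, as an exact palindrome, was in 0.0700% of all windows and in none of the genes that passed. Only 1 of the 10787 genes tested with a window held it, so this search cannot tell the genes that passed from the rest. The CArG box of serum response factor was in 1.63% of all windows and in 1.56% of the genes tested that had a window, and in 2 of the 68 and 1 of the 44.

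In the lists of cardiac stress, ion channel and sarcomere genes, Rcan1 rose and Kcnh2 and Tcap fell. Rcan1, a regulator of the phosphatase calcineurin whose transcription calcineurin itself drives, was at 3796, 2829, 3090 and 3108 in Ctrl + AngII and at 5166, 6451, 9702 and 6290 in Ovx + AngII. Library 48 was the highest by far, and the groups were apart. The log2 fold change was 1.08 (SE 0.13, limma adjusted p = 0.000503), and 0.90 without the library that moved it most. Kcnh2, which encodes the channel of the rapid delayed rectifier potassium current, was at 2783, 2994, 2912 and 2785 and then at 2099, 1890, 1995 and 1954. This narrow spread gave a log2 fold change of −0.53 with a standard error of 0.06 (limma adjusted p = 0.00045). Tcap, the gene of the Z-disc protein telethonin, fell from 39002, 51454, 45172 and 47581 to 30243, 27794, 24186 and 29122, with a log2 fold change of −0.72 (limma adjusted p = 0.00241). The order of libraries resembled that of the clock genes. Libraries 46 and 41 were the highest of their groups for Tcap and Kcnh2 and the lowest for Rcan1. Library 48 was the lowest of Ovx + AngII for Tcap but not for Kcnh2. A part of the hour of death in these genes was not tested.

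Few other genes of the myocyte lists passed, beside 1.01% of all genes tested. Of 28 cardiac ion channel and connexin genes, Kcnh2 fell and the median was −0.05. Of 17 sarcomere genes, Tcap fell and the median was −0.02. Of 14 calcium handling genes none passed (median 0.05), nor did any of 12 cardiomyocyte markers (−0.02) or 7 atrial markers (−0.26, Nppa among them). Of 14 cardiac stress and hypertrophy genes Rcan1 rose, and the median was 0.09. Nppa, the gene of atrial natriuretic peptide, was at 22490, 24615, 21926 and 19593 in Ctrl + AngII and at 12279, 20071, 14117 and 15317 in Ovx + AngII, with a log2 fold change of −0.54 (limma adjusted p = 0.379). Nppb, the gene of the B-type peptide, was at 9870, 7874, 9564 and 12775 and then at 12500, 13676, 17056 and 13085, a log2 fold change of 0.50 (limma adjusted p = 0.326). The means of the natriuretic peptide genes thus pointed in opposite directions, in each case with an overlap at 1 library, and neither passed. Myh7, the slow myosin gene, ranged from 12038 to 59811 in Ctrl + AngII and from 25197 to 111507 in Ovx + AngII, and Acta1 from 24542 to 27407 and from 26048 to 53175. Their groups overlapped (0.70 and 0.47, limma adjusted p = 0.599 and 0.708), and for Acta1 the spread lay mainly in Ovx + AngII. Ankrd1, a stretch-induced gene, differed by −0.05.

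In the fixed lists of matrix genes few members passed, and all but Timp3 of these were higher in Ovx + AngII. Of all genes tested, 0.406% passed as higher and 0.602% as lower. Col5a3, the alpha 3 chain of type V collagen, was the clearest, at 537, 660, 652 and 633 in Ctrl + AngII and at 886, 1143, 1198 and 1099 in Ovx + AngII. The groups were apart, with a log2 fold change of 0.80 (SE 0.12, limma adjusted p = 0.00251). It was the only one of 7 fibrillar collagen genes to pass, and the median of the 7 was 0.18. Col1a1 (0.21) and Col3a1 (0.48), the main fibrillar chains, did not pass: Col3a1 was at 10834, 8844, 7212 and 7815 and then at 9923, 13313, 14553 and 10750, with library 40 above 2 of the Ovx + AngII libraries. Of 15 other collagens, Col15a1 (0.57) and Col4a2 (0.40), both of basement membranes, rose, and the median was 0.15. Without AngII the medians were 0.32 over the fibrillar and 0.30 over the other collagens, and no member passed there.

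Of 36 matrix glycoproteins and proteoglycans, Fbn1, the fibrillin of elastic microfibrils, rose by a log2 fold change of 0.52, and the median was −0.02. Of 24 matrix enzymes and inhibitors, Serpinh1, the collagen chaperone, rose by 0.38 and Timp3, an inhibitor of matrix metalloproteinases, fell. Timp3 was at 11633, 11031, 13039 and 12093 in Ctrl + AngII and at 7916, 7818, 7102 and 7599 in Ovx + AngII. The libraries within each group were close and the groups far apart, with a log2 fold change of −0.65 (SE 0.11, limma adjusted p = 0.00343). The calls on Col15a1, Col4a2, Fbn1 and Serpinh1 were near the threshold (adjusted p = 0.0355, 0.0449, 0.0459 and 0.0423 from limma) and ended when single libraries were left out (up to 0.16). Of 10 activated fibroblast markers and 11 fibroblast markers none passed, with medians of −0.00 and −0.05, and Postn, a marker of activated fibroblasts, differed by 0.02. The medians of these lists without AngII were 0.37 and 0.07. Of 19 genes of TGF-beta signalling, Smad3, its intracellular mediator, rose by 0.35 (limma adjusted p = 0.0491), a call that ended under 18 of 30 alternatives (up to 0.137 with 1 library left out), while 17 of the 19 had negative values that did not pass (median −0.11). Without AngII, Fbn1 was at 0.48, Smad3 at 0.35, Col15a1 at 0.33 and Col4a2 at 0.26. Serpinh1 and Timp3 were at −0.12 and −0.26 there, and none of these genes passed.

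Outside these lists the metalloproteinase gene Adam19 and the secreted matrix protein gene Spon2 were among the 7 genes called higher. Adam19 was at 991, 813, 836 and 873 in Ctrl + AngII and at 1785, 1809, 1744 and 1721 in Ovx + AngII. The Ovx + AngII libraries lay close together, far above the others. Its log2 fold change was 1.01 (SE 0.13, limma adjusted p = 0.000621). Spon2 was at 20.6, 48.5, 40.0 and 76.0 and then at 154, 175, 452 and 249, a log2 fold change of 2.46 (SE 0.46, limma adjusted p = 0.00946). Spon2 was low and variable in both groups, with library 48 again the highest. Podn, a small leucine-rich proteoglycan gene, and Tspan4, a tetraspanin gene, fell by 0.60 and 0.67 on the log2 scale, each with the groups apart.

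**Figure D4:**
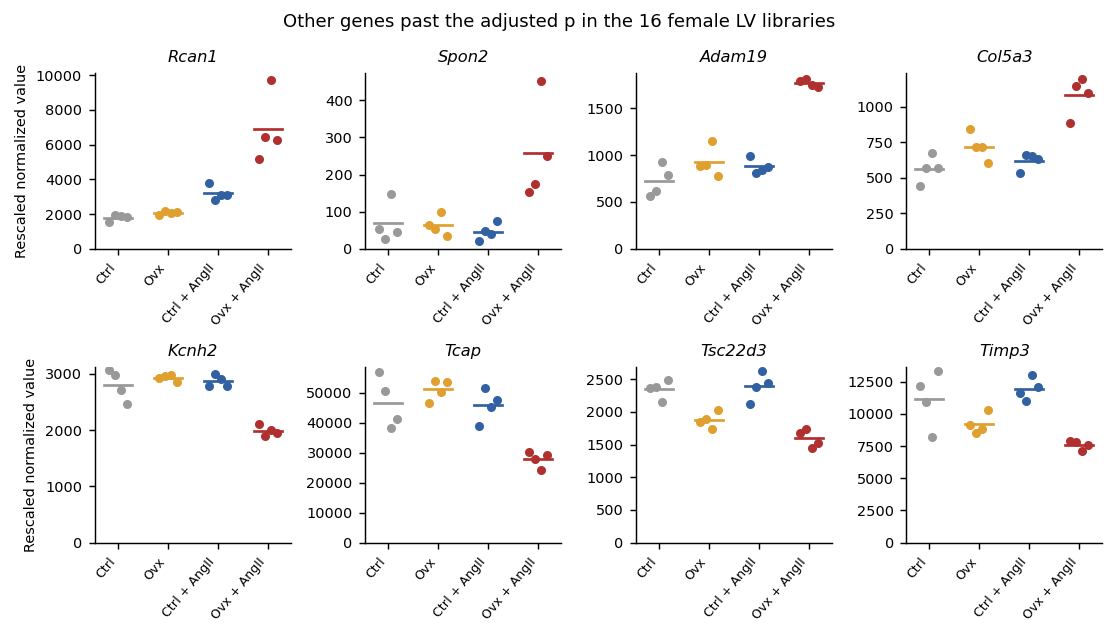
Rescaled normalized value (vertical, from 0) of 8 further genes that passed the adjusted p, in each of the 16 female libraries, with the bar at the group mean. All 4 Ovx + AngII points lie above the other 12 for Rcan1, Spon2, Adam19 and Col5a3 and below them for Kcnh2, Tcap, Tsc22d3 and Timp3.

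In the vessels, 1 marker gene passed, beside 1.01% of all genes tested. Of 15 endothelial markers Kdr, the main receptor of vascular endothelial growth factor, rose by 0.29 (limma adjusted p = 0.0432), from 5768 to 7044 in Ctrl + AngII to 7262 to 8403 in Ovx + AngII, and the median was 0.09. The call on Kdr ended under 17 of 30 alternatives (adjusted p up to 0.163 with 1 library left out). Of 15 contractile genes of vascular smooth muscle none passed the adjusted p, but 12 were negative, 7 had an unadjusted p under 0.05 and the median was −0.19, against 0.13 without AngII. Over all 13780 genes tested, 1593 had an unadjusted p under 0.05 and 6841 were positive. Acta2, smooth muscle actin, was at 5461, 3804, 3787 and 4441 in Ctrl + AngII and at 3090, 2400, 3203 and 3527 in Ovx + AngII, apart by library but not past the test (−0.51, limma adjusted p = 0.0811). Cnn1 (−0.83) and Myh11 (−0.34), of the same contractile set, each overlapped between the groups. Of 12 pericyte markers none passed, with a median of 0.02. In bulk tissue fewer cells of a type and less RNA per cell cannot be told apart.

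No steroid hormone receptor gene and no oestrogen-responsive gene of the lists passed, beside 1.01% of all genes tested. Esr1, the oestrogen receptor alpha gene, was at 50.4, 35.9, 35.9 and 59.1 in Ctrl + AngII and at 47.0, 26.1, 42.2 and 34.7 in Ovx + AngII, with no difference beyond this spread (−0.27, limma adjusted p = 0.774). Esr2 and Pgr, the genes of oestrogen receptor beta and the progesterone receptor, were below the minimum level. None of 8 receptor genes passed (median 0.03, Nr3c1 0.12, Esrra 0.02), nor any of 10 oestrogen-responsive genes (−0.04), of which Igfbp4 and Ctsd were at −0.10 and −0.09. Of 11 genes of the renin-angiotensin system and natriuretic receptors none passed (−0.06). Of these, Ace, which makes angiotensin II, was at −0.44 (adjusted p = 0.105) and Corin, which activates the natriuretic peptides, at −0.33 (adjusted p = 0.0729).

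Glucocorticoid-induced genes had lower medians in both comparisons of ovariectomy. Of 15, Tsc22d3 and Per1 fell under AngII, against 0.602% of all genes, and the median was −0.27. This list too was chosen with earlier results of these data known. Without AngII 2 of the 15 passed, both lower, and the median was −0.29. Without Ctrl libraries 37 and 51 none of them passed there and the median was −0.28. Tsc22d3, which encodes the anti-inflammatory protein GILZ, was at 2118, 2384, 2628 and 2447 in Ctrl + AngII and at 1673, 1734, 1451 and 1518 in Ovx + AngII. The log2 fold change was −0.59 (SE 0.07, limma adjusted p = 0.000596), and it was −0.33 without AngII (−0.27 less Ctrl libraries 37 and 51). Per1 is a member of the clock list too and counts in both.

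The other genes of largest change had varied functions. Prdm1, a transcriptional repressor gene of immune and other lineages, was at 79.5, 64.0, 50.6 and 72.9 in Ctrl + AngII and at 146, 167, 144 and 131 in Ovx + AngII (1.14, limma adjusted p = 0.00263). Prnd, a relative of the prion protein gene, was at 79.0, 56.6, 70.7 and 68.4 and then at 116, 160, 139 and 240 (1.20, limma adjusted p = 0.00517). In both the groups were apart, and Prnd owed its widest value to library 54. Slc41a3, a magnesium transporter gene, rose by 0.99 and Tfrc, the transferrin receptor gene, by 0.87. Aplnr, the apelin receptor gene, stood at 1076, 667, 350 and 503 in Ctrl + AngII and at 1230, 1133, 1187 and 1116 in Ovx + AngII. Library 42 was its lowest, and without that library the log2 fold change of Aplnr went from 0.96 (limma adjusted p = 0.0478) to 0.71 (0.152). The remaining higher genes named by rank were Lingo3 (0.93), Colq (0.86), Igf2bp2 (0.84) and Klhdc8a (0.78). The calls on Tfrc, Lingo3 and Igf2bp2 ended when some single libraries were left out (adjusted p up to 0.0946, 0.0845 and 0.116).

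Mthfd1l, an enzyme of mitochondrial one-carbon metabolism, showed the largest fall among genes that passed, from 133, 97.1, 132 and 104 in Ctrl + AngII to 61.2, 35.3, 42.6 and 37.5 in Ovx + AngII. The groups were apart, with a log2 fold change of −1.40 (SE 0.25, limma adjusted p = 0.00571). Cys1, which encodes the cilium protein cystin, was at 236, 143, 160 and 230 and then at 98.0, 87.7, 77.8 and 78.6 (−1.13, limma adjusted p = 0.00468). Spock2, a testican proteoglycan gene, was at 489, 425, 1019 and 735 and then at 270, 302, 311 and 317 (−1.07, limma adjusted p = 0.0289). Here the Ovx + AngII libraries were alike and the Ctrl + AngII libraries were not, and without library 42 the value was −0.84 (limma adjusted p = 0.101). Gm12295, a long non-coding RNA in GENCODE, fell by 1.07 and Aox3, an aldehyde oxidase gene with a mean value below 50, by 1.12 on the log2 scale. Fmo2 (−0.90) and Ephx1 (−0.58), enzymes of xenobiotic metabolism, fell too, as did Ppl (−0.98), Apod (−0.97), Ier3 (−0.92), Lonrf1 (−0.87) and Rhobtb1 (−0.84). Ier3 was the only one of 20 immediate early genes that passed, and their median was 0.12.

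Erythroid, macrophage and interferon genes did not pass but lay mostly on the lower side, while 6 of 8 lymphocyte and plasma cell markers were positive. Over all 13780 genes tested 6841 were positive. All 21 interferon-stimulated genes had negative values (median −0.33, −0.12 to −0.80), with Iigp1 at −0.56, and none passed. Of 16 macrophage markers none passed (median −0.21, 2 positive; Lyz2 −0.19, F13a1 −0.24). The 8 erythroid transcripts were all negative, with a median of −0.92 that none of them carried past the test (Hba-a2 −1.61, adjusted p = 0.119; Hba-a1 −0.96). The summed erythroid level was 31577, 22023, 72211 and 20344 in Ctrl + AngII and 22713, 13729, 21904 and 9914 in Ovx + AngII. Library 42 was thus far above the rest, and the groups overlapped. Of 8 lymphocyte and plasma cell markers, 6 adipocyte markers, 7 Schwann cell markers, 6 epicardial markers and 17 cell division genes none passed, with medians of 0.25, 0.01, −0.11, 0.23 and 0.20. The part of these cells in the results above was not tested.

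Genes of general metabolism and protein synthesis stayed near the middle of all genes. The median was 0.05 over 26 genes of fatty acid uptake and oxidation, −0.06 over 25 of glucose uptake and glycolysis, −0.03 over 33 oxidative phosphorylation subunits, −0.01 over 30 cytosolic ribosomal proteins and 0.05 over 18 heat shock proteins and co-chaperones. None of these genes passed.

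**Figure D5:**
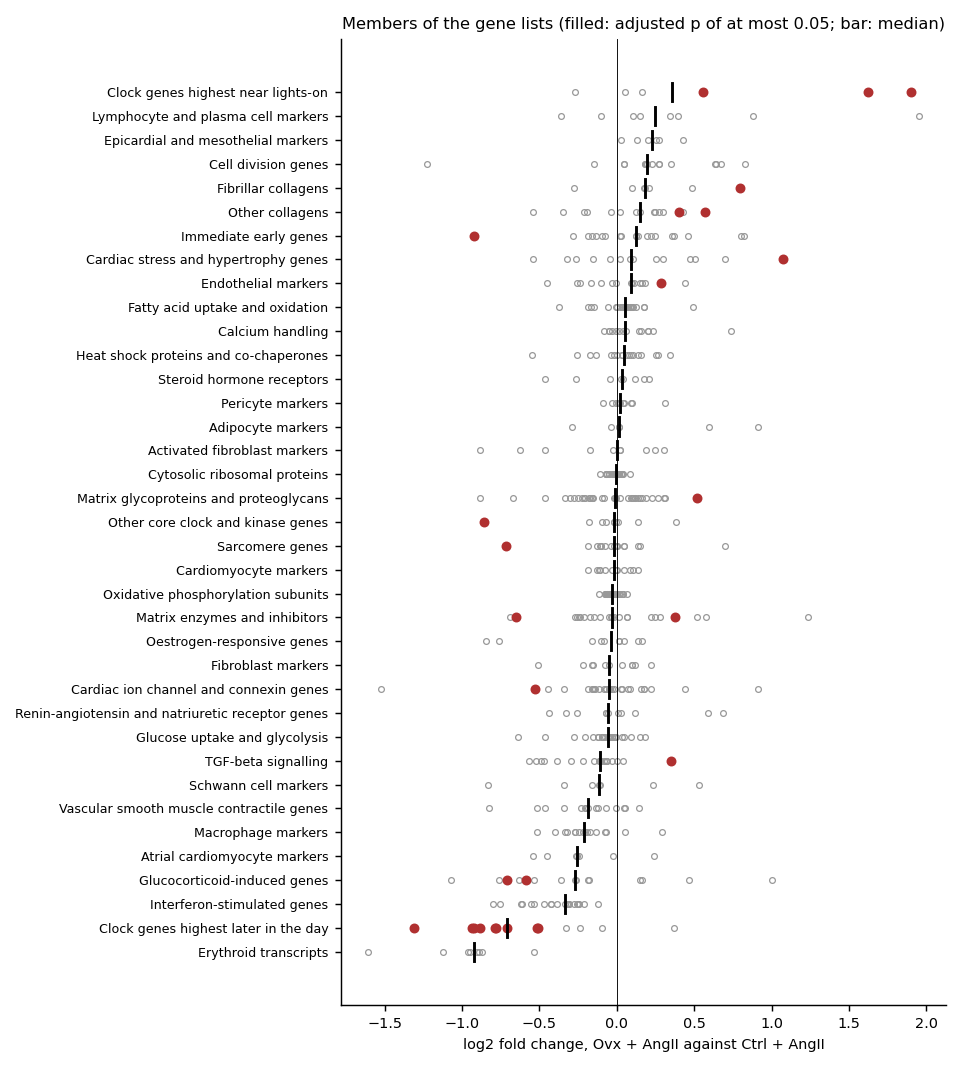
Log2 fold change of Ovx + AngII against Ctrl + AngII (horizontal) for each tested member of the 37 gene lists, with the median of each list as a bar and members past the adjusted p filled. The 9 filled points of the later clock list lie left of 0, the 3 of the near-lights-on list lie right of 0, and no other list has more than 2.

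Without AngII, in 8 other libraries, ovariectomy gave no gene past both thresholds and 15 past the adjusted p (0.109%), with 1712 at an unadjusted p under 0.05 against 1593 under AngII. None passed without Ctrl libraries 37 and 51, nor without 37, 44, 45 or 51 alone. Without libraries 46, 54, 39 and 43 there were 9, 7, 114 and 356. Of the 139 genes that passed under AngII, 3 passed here too (2310022B05Rik, Cebpb and Gpcpd1). In 99 of the 139 (71.2%) the value without AngII had the same sign, against 52.5% of all genes. This was so in 48 of the 56 higher and 51 of the 83 lower genes, and the medians without AngII were 0.19 and −0.06 against 0.50 and −0.56 with it. Less Ctrl libraries 37 and 51, the same sign was seen in 91 of the 139 (65.5%), in 45 of the higher and 46 of the lower, against 52.6% of all genes. None of the clock genes passed without AngII: Arntl was at 0.60 (limma adjusted p = 0.458), Npas2 at 0.33, Per2 at −0.36, Tef at 0.00, Hlf at 0.17 and Dbp at 0.31. Less Ctrl libraries 37 and 51 these 6 were at 0.26, 0.08, −0.03, 0.09, 0.26 and 0.33. With all libraries kept, Nr1d1 was at 0.54, Bhlhe41 at 0.42 and Nfil3 at −0.53 without AngII (limma adjusted p = 0.137, 0.116 and 0.154). Nr1d2, Bhlhe40 and Cry1 were at −0.15, 0.00 and −0.16. The Ovx libraries lay wholly above Ctrl for Nr1d1 and Dbp and wholly below for Nfil3, and 830 of all 13780 genes were apart in this way.

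The difference between the ovariectomy effects with and without AngII passed the adjusted p in 8 genes (0.0581%). None passed with all 24 libraries in the fit, with variance without trend, or without libraries 49 to 54. The 8 genes were Dbp (−1.19), Tcap (−0.86), Ephx1 (−0.79), Tef (−0.79), Tspan4 (−0.77), Podn (−0.72), Kcnh2 (−0.60) and Sulf2 (−0.44). All 8 differences were negative, and the first 7 genes fell under AngII while their values without it lay between 0.00 and 0.31 and did not pass. Kcnh2, for example, was at 3060, 2974, 2713 and 2458 in Ctrl libraries 37, 38, 39 and 51 and at 2922, 2959, 2974 and 2859 in Ovx libraries 43, 44, 45 and 53. Sulf2, a sulfatase of heparan sulfate, rose without AngII (0.39, limma adjusted p = 0.016) and did not pass with it (−0.06). Without Ctrl libraries 37 and 51, Tef, Tcap, Ephx1, Tspan4 and Kcnh2 still passed, Dbp (adjusted p = 0.0547), Podn (0.0849) and Sulf2 (0.157) did not, and Per2 did (−1.28, adjusted p = 0.0372). The count of 8 fell to 2 without library 53, to 3 without 47, to 4 without 42 and to 5 without 45 or 54, and rose to 13, 22 and 115 without 46, 39 and 43. For Arntl, Npas2 and Rcan1 the differences of 1.30, 1.29 and 0.86 did not pass (limma adjusted p = 0.325, 0.137 and 0.094), so an effect of AngII on their rise was not shown at 4 pools a group.

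Of the 114 genes named by rule, 38 overlap a gene on the opposite strand in GENCODE M21, among them Dbp (with Sphk2), Tspan4 (with Chid1), Timp3 (with Syn3), Tef, Wee1, Ciart, Kcnh2, Arntl and Rcan1. The library kit keeps the strand, and whether reads were counted by strand was not given in the sources used here.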

How the data were processed

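LV mRNA of 24 libraries was sequenced by the authors from a stranded kit, and 8 libraries form the comparison. The reads were aligned to mm10 with STAR and normalized with DESeq2 by the authors, and Salmon is also among the tools in the submitters' processing notes. Versions are not given in the sources used here. The deposited values are a normalized signal per gene, neither whole nor counts, so no count model was fitted and depth is known only relative to the median library. Left out were 14 rows named by dates (0.0552% of the values) and 1 row with no name. Median-of-ratios factors, from 13871 genes above 0 in all 24 libraries, brought them to 1 scale. Coordinates were taken from GENCODE M21.

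limma 3.58.1 (lmFit on group means, then eBayes with a trend; R 4.3.3) was run on the log2(value + 1) of the 16 female libraries, with Benjamini-Hochberg adjustment over the genes with a mean of at least 10. Thresholds (adjusted p of 0.05, log2 fold change of 1) follow the study. An exact two-sided permutation test of 4 against 4 libraries cannot go below p = 0.0286, which every gene whose groups do not overlap reaches. The test was checked on simulated data. Named genes were up to 15 higher and 15 lower by size among those called, then among those past the adjusted p (mean of at least 50, groups apart), those past the test of the difference, up to 4 passing members of each list or else the 2 of highest level, and a fixed set of clock, receptor, stress, matrix and smooth muscle genes. Of the clock windows, those without a match are not printed. The members of the comparison, the lists and the motifs were chosen with earlier results of these data known. Alternatives covered scale, added constant, minimum level, libraries in the fit, variance model, library weights and each library left out. The fit without Ctrl libraries 37 and 51 was chosen after seeing the data. Replicates are pools that the labels give as separate samples. Python 3.11.15 and matplotlib 3.10.9 were used for summaries and plots. Some genes chosen by the rule are not reported here.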

Additional observations from a re-analysis of the deposited data

Results flagged for a closer look

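In 6 of 228 groups of 4 libraries (2.63%) of the named genes, 1 library stood apart from the other 3 by the limit of Dixon's test, which chance passes in about 1 of 20 groups. Arntl in Ctrl + AngII library 40 was at 148.5 against 80.3 to 90.6 in the others, and Fmo2 in Ctrl + AngII library 42 at 2761 against 1659 to 1830. Ovx + AngII library 48 stood apart for Igf2bp2 (300.0 against 193 to 197) and for Cry1 (230.1 against 208 to 210). Hspb7 was at 131021 in Ctrl + AngII library 52 against 120502 to 121117, and Cilp at 2914 in Ovx + AngII library 54 against 3635 to 3727.

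A difference between the ovariectomy effects with and without AngII, tested by the interaction term of limma, marked 8 genes: Dbp (−1.19), Tcap (−0.86), Ephx1 (−0.79), Tef (−0.79), Tspan4 (−0.77), Podn (−0.72), Kcnh2 (−0.60) and Sulf2 (−0.44).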

How the results depend on the processing

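Under AngII, 13 genes passed both thresholds and 139 the adjusted p. The values as deposited gave 23 and 623, library quality weights 24 and 289, and the fit without libraries 49 to 54 (3 against 3) gave 8 and 27. With all 24 libraries in the fit 84 passed the adjusted p, and 87 with variance without trend. Leaving out 1 library gave 9 to 19 and 76 to 183, and leaving out Ctrl libraries 37 and 51 gave 15 and 170. Without AngII, 0 passed both thresholds and 15 the adjusted p, against 6 and 204 as deposited, 9 and 239 with quality weights, and, at the adjusted p, 2 with no filter on low values, 0 with the 2 groups alone, 3 with all 24 libraries, 3 with variance without trend, 6 with robust variance, 0 without libraries 49 to 54 and 0 without Ctrl libraries 37 and 51. Leaving out 1 library gave 0 to 10 and 0 to 356, the highest without library 43. For the interaction, 1 and 8 genes passed. These became 34 and 1049 as deposited, 7 and 76 with quality weights, 0 and 0 with all 24 libraries, with variance without trend and without libraries 49 to 54, and 0 past both thresholds with robust variance. Leaving out 1 library gave 0 to 10 and 2 to 115.

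Of the 49 named genes past the adjusted p, none changed sign under 30 alternatives and 12 passed under all: Rcan1, Adam19, Npas2, Prdm1, Slc41a3, Tef, Tsc22d3, Kcnh2, Mthfd1l, Ier3, Fmo2 and Ephx1. Arntl lost its call with all 24 libraries (adjusted p = 0.0641 from limma) and without libraries 49 to 54 (0.0529), and Per2 with all 24 libraries (0.171). Of the 65 others, 4 passed under some alternative. No paired analysis was run because the groups were of different mice and the labels give no pairing. Depth limits low genes such as Spon2 most in library 40.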

Other observations

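Some endothelial genes outside the lists were picked because they had passed, so nothing follows from their direction as a group. Apln, the peptide ligand of Aplnr that endothelial tip cells make, was higher by 0.66 on the log2 scale (limma adjusted p = 0.0466). Pcdh12, an endothelial protocadherin gene, was at 0.74, Bcl6b, an endothelial repressor gene, at 0.58, Vash1, an endothelial inhibitor of vessel growth, at 0.50, and Plxnd1, a semaphorin receptor gene, at 0.44. Of the 15 fixed endothelial markers 8 were positive, with a median of 0.09.

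Also picked after the values were seen, the transcription factor genes Foxo3 (−0.48) and Nfe2l2 (−0.37) and the lipid carrier gene Apoe (−0.39) passed as lower, as did Cebpb (−0.68), which was at −0.76 without AngII and passed there as well, but not less Ctrl libraries 37 and 51 (−0.72, limma adjusted p = 0.700).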
